A study of Macaca mulatta with 102 samples.

Results

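Costimulatory genes of the tumour necrosis factor (TNF) family other than the OX40 pair were followed in macaque blood T cells: the ligand genes CD70 and CD40LG and the receptor genes TNFRSF25, TNFRSF14, TNFRSF18 and TNFRSF1B. They were chosen by name. Each was read from the probe sets (groups of short probes summarised as 1 value) that the platform annotation pairs with that gene and no other. These were 13 probe sets, of which 12 passed the filter on low values. All 6 genes are among the 14132 genes with such a probe set, of which 10718 passed the filter. Where a gene had several probe sets, the one with the highest mean stood for the gene and the others are given beside it. Levels are log2 signal intensities, so a difference of 1 is a doubling. Levels of different probe sets are not compared with each other, since their probes bind with different strength.

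The TNF family consists of trimeric ligands and their receptors. Several of its members give T cells a second signal beside the antigen receptor, passed on through TRAF adaptor proteins to NF-kB and to survival and division. CD70, shown by activated lymphocytes and antigen-presenting cells, binds CD27. CD40 ligand, encoded by CD40LG, is shown mainly by activated helper T cells and binds CD40 on B cells, dendritic cells and macrophages. TNFRSF25 encodes DR3, the receptor of TL1A. TNFRSF14 encodes HVEM, which binds LIGHT as an activating ligand and BTLA and CD160, through which it can inhibit. TNFRSF18 encodes GITR, and TNFRSF1B encodes TNFR2, the TNF receptor with no death domain. Both are high on regulatory T cells and rise on activated T cells. These pathways have been studied in graft-versus-host disease (GVHD), in which donor T cells attack the tissues of a recipient of hematopoietic cells.

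CD3-positive T cells were sorted by flow cytometry from blood of 66 rhesus macaques, and their RNA was measured on 102 Affymetrix arrays. The 2 healthy arrays of animal R.201 were averaged, which left 101 arrays in 16 groups. Healthy untransplanted animals (Healthy.Control) gave 45 of these. Every other group had received a transplant of hematopoietic cells, either autologous (their own cells) or allogeneic (donor cells). The autologous groups were Auto.D14 (n = 3, day 14), Auto.D36 (n = 4, days 30 to 36) and Auto.D100 (n = 4, day 100). The allogeneic group NoRx.F (n = 4, days 6 to 12) is the one whose label names no prophylaxis, and Siro.F (n = 4, days 12 to 24) the one labelled for sirolimus, an inhibitor of mTOR, alone. KY1005 is an antibody against OX40 ligand, and it alone labels KY1005.D14 (2 arrays, taken on days 14 to 16) and KY1005.F (3 arrays, days 16 to 23). The antibody given with sirolimus labels KY1005.Siro.D14 (n = 5, day 14), KY1005.Siro.D28 (n = 5, day 28) and KY1005.Siro.F (n = 4, days 97 to 106). Tacrolimus, a calcineurin inhibitor, with methotrexate, an antimetabolite, labels Tac.Mtx.D14 (3 arrays, day 14) and Tac.Mtx.F (3 arrays, days 26 to 67). The drug belatacept, which blocks CD28 costimulation, with sirolimus labels Bela.Siro.D14 (n = 3, day 14), Bela.Siro.D30 (n = 2, day 30) and Bela.Siro.F (n = 7, days 26 to 105). The labels do not spell out the ending F, and doses, ages and the preparation for transplant are not given in the sources used here. Within a group each array came from a different animal, but animals recur between groups (R.212 is in both KY1005.D14 and KY1005.F).

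Of 10 core T cell genes, 5 had a single-gene probe set (CD5, CD6, CD28, TRAT1 and UBASH3A), with means from 7.00 to 11.41. These lay at percentiles 73.4 to 98.5 of the means of all 52865 probe sets, unnamed and low ones included. CD3D, CD3G and CD247 had none, so the sorted antigen itself was not checked. Monocyte and myeloid markers varied between arrays. Their score (the mean of 10 measured markers of 12, each centred on the healthy mean) ran from -1.14 to 1.48 in healthy arrays, from 0.05 to 2.58 in NoRx.F, from 1.15 to 2.52 in KY1005.Siro.D14 and from -0.67 to 4.39 in KY1005.Siro.F. The actin control probe sets at the 3' end exceeded those at the 5' end, a sign of RNA quality, by a log2 ratio above 2.5 on 6 arrays, namely R.201 and R.202 of Auto.D14 and 4 healthy arrays. The KY1005 groups lie in 1 labelled batch with 7 healthy arrays, of which 2 are among those 4. Among healthy arrays 0.274% of probe sets had a batch p under 0.05 and 24.9% one above 0.95. Whether batches were adjusted before deposit is not given in the sources used here. Array counts of 2 to 7 per transplant group limit the precision throughout.

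Each group was compared with healthy controls, and 11 pairs of transplant groups with each other, in 1 limma fit with batch as a factor. A gene passed when its p, adjusted over 31711 probe sets, was under 0.05. The 15 comparisons with healthy controls share the healthy arrays and ask how each regimen's T cells stood relative to untransplanted animals. With batch as a factor, the KY1005, tacrolimus and belatacept groups were set against the healthy arrays of their own batch. NoRx.F had 4 of the 6 genes past the threshold, where 27.5% of all probe sets passed: CD70 and TNFRSF1B were higher, CD40LG and TNFRSF25 lower. Auto.D14 had 3, all higher (CD70, TNFRSF18 and TNFRSF1B), against a background of 19.4%. Auto.D36 had 2, CD70 higher and TNFRSF25 lower (background 9.26%), and Auto.D100 had 1, TNFRSF1B higher (background 2.48%). KY1005.F had 2, both lower, CD40LG and TNFRSF25 (background 3.28%). CD40LG was the 1 gene past the threshold, and lower, in KY1005.Siro.D14 (background 4.15%) and in KY1005.Siro.D28 (background 12.1%). CD70 was the 1 gene past the threshold, and higher, in Tac.Mtx.D14 (background 0.880%) and in Tac.Mtx.F (background 14.3%).

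In 6 groups, 0 of the 6 genes were past the threshold of the limma test. They were Siro.F (background 8.91%, 1 gene at an unadjusted p under 0.05), KY1005.D14 (0.202%, 3 genes), KY1005.Siro.F (6.84%, 1 gene), Bela.Siro.D14 (2.68%, 2 genes), Bela.Siro.D30 (1.14%, 0 genes) and Bela.Siro.F (10%, 1 gene). The 3 belatacept groups thus gave no call for any member, also under each alternative fit run. Over the 15 comparisons CD70 passed 5 times, always higher, CD40LG 4 times and TNFRSF25 3 times, always lower, TNFRSF1B 3 times and TNFRSF18 once (1 of 15), higher, and TNFRSF14 in 0. The median difference of the 6 genes lay between -0.26 in KY1005.Siro.F and 0.58 in Auto.D14, and that of all probe sets between -0.05 and 0.05.

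**Figure D1:**
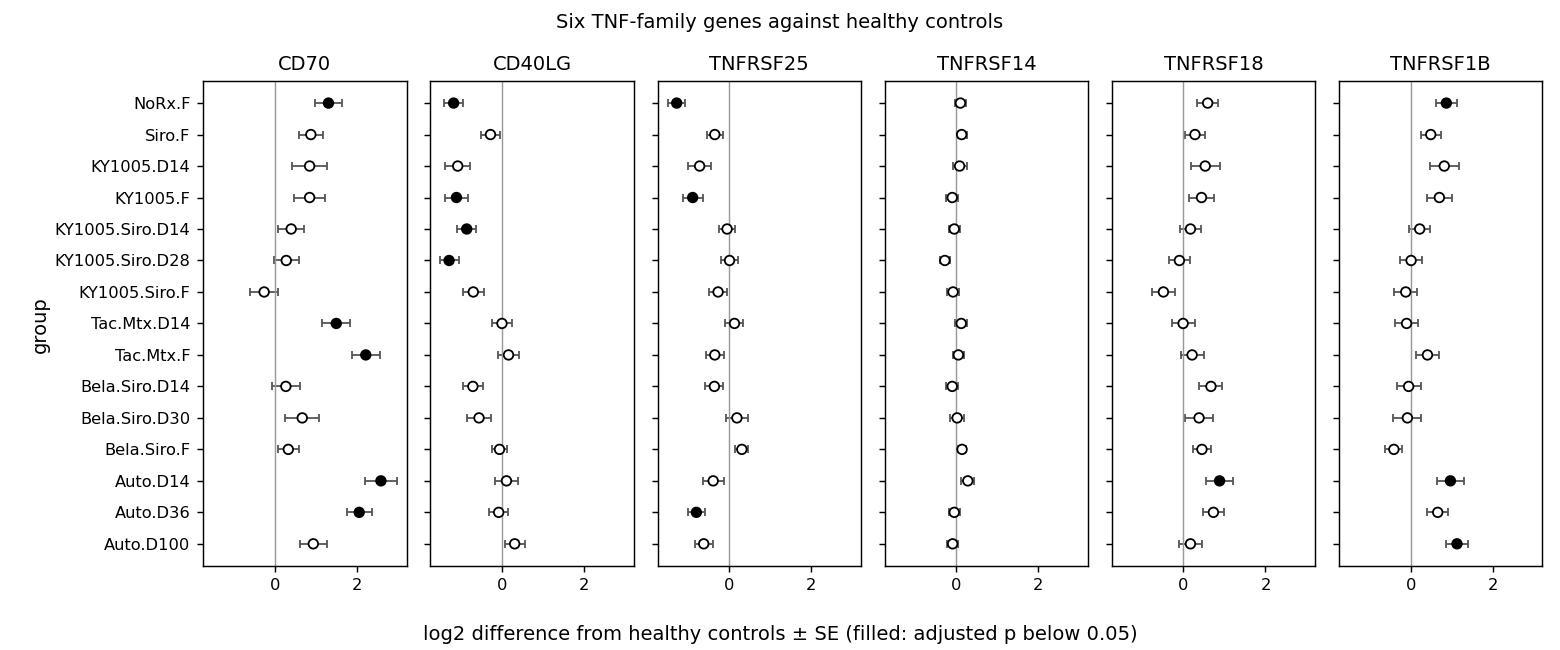
Difference from healthy controls (log2, ± SE) of each of the 6 genes in the 15 transplant groups, from the limma fit with batch, with filled circles where the adjusted p was under 0.05. CD70 reaches 2.59 in Auto.D14, CD40LG -1.29 in KY1005.Siro.D28 and TNFRSF25 -1.28 in NoRx.F, while no circle is filled for TNFRSF14.

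CD70, the ligand of CD27, was the member that rose most. Its level was 5.61 ± 0.47 (SD, n = 45) in healthy arrays, with a lowest, median and highest value of 4.81, 5.64 and 6.60. In Auto.D14 the 3 arrays read 7.63, 8.28 and 7.21, and in Auto.D36 the 4 arrays read 7.73, 6.82, 8.07 and 7.71. All 7 autologous arrays before day 100 stood above every healthy array. The fitted differences, which allow for batch, were 2.59 ± 0.40 (SE) for Auto.D14 (6.02-fold, limma adjusted p = 2.84e-05) and 2.06 ± 0.31 for Auto.D36 (4.16-fold, adjusted p = 2.08e-05). Plain differences of the group means from the mean of all healthy arrays were 2.1 and 1.98, so the Auto.D14 value depends on the batch term. By day 100 the 4 values were 6.17, 6.12, 6.07 and 6.36, inside the healthy range, with a difference of 0.94 ± 0.33 that did not pass (adjusted p = 0.103). Without the arrays of high actin ratio Auto.D14 keeps 1 array, with a CD70 difference of 2.08, and 0 of all 31711 probe sets passed (CD70 adjusted p = 0.439).

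Recipients given tacrolimus and methotrexate also had high CD70. The 3 arrays of Tac.Mtx.D14 read 7.34, 7.69 and 6.69, and the same animals' later arrays in Tac.Mtx.F read 8.13, 7.94 and 7.79. All 6 were above the highest healthy value. The differences from healthy controls were 1.5 ± 0.34 at day 14 (2.84-fold, adjusted p = 0.0105) and 2.22 ± 0.34 later (4.64-fold, adjusted p = 1.80e-05). These groups lie in 1 batch, so the fit with batch already sets them against the healthy arrays of that batch. A limma fit within that batch gave the same differences by construction, with adjusted p = 0.00834 and 0.000281. The day 14 call was lost without R.21 or without R.20 (adjusted p up to 0.202).

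In NoRx.F, CD70 read 7.65, 6.34, 6.02 and 7.00, so that 2 of 4 arrays lay above the healthy range and the groups overlapped. The difference was 1.31 ± 0.32 (2.49-fold, adjusted p = 0.000685). Siro.F was uneven: R.18 read 8.27 while the other arrays read 5.69, 5.97 and 5.57. Its difference of 0.88 ± 0.30 did not pass (adjusted p = 0.0513), and without R.18 it was 0.20. The lowest transplant group was KY1005.Siro.F, where 3 arrays read 5.30, 5.37 and 5.15 and R.217 read 6.68. Here too the group mean, 5.62 ± 0.71 (SD, n = 4), rests on a value far from the others. KY1005.D14 (6.75 and 6.73) and KY1005.F (7.59, 6.27 and 6.35) had means of 6.74 and 6.73, with a difference of 0.85 each that did not pass (adjusted p = 0.417 and 0.167). With sirolimus added, KY1005.Siro.D14 ranged from 5.69 to 7.23 and KY1005.Siro.D28 from 5.68 to 6.52, and in the belatacept groups CD70 ranged from 5.10 to 6.79. Most of those arrays lay inside the healthy range.

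CD40LG was lower in each of the 4 groups where it passed, of which NoRx.F alone also had a CD70 call. Over all 101 arrays CD40LG and CD70 had r = -0.02. In healthy arrays its level was 9.15 ± 0.41 (SD, n = 45), with a lowest, median and highest value of 8.17, 9.10 and 10.31. In NoRx.F it read 8.60, 7.88, 7.54 and 7.55, so 3 of 4 arrays lay below every healthy array. The difference was -1.18 ± 0.23, 2.27-fold lower (adjusted p = 3.02e-05). R.53, which also had a healthy array, changed by less, from 9.05 to 8.60 (-0.45). The KY1005.Siro.D28 arrays read 7.59, 8.33, 8.18, 7.97 and 8.10, which was 3 of 5 below the healthy range. Their difference was -1.29 ± 0.23 (2.44-fold lower, adjusted p = 0.000101), set by construction against the 7 healthy arrays of their batch. Within that batch alone the adjusted p was 0.0232, and without arrays of high actin ratio the difference was -1.02 (adjusted p = 0.00619).

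At day 14 of KY1005 with sirolimus CD40LG read 8.74, 8.66, 7.97, 8.17 and 8.77, with a difference of -0.86 ± 0.23 (adjusted p = 0.0183). KY1005.F read 7.92, 8.28 and 8.44, with a difference of -1.11 ± 0.27 (adjusted p = 0.0135). KY1005.D14 (8.40 and 8.09) had a difference of -1.08 ± 0.31 that did not pass (adjusted p = 0.109). KY1005.Siro.D14 and KY1005.F differed from each other by 0.25 (95% interval -0.32 to 0.82). The calls of KY1005.Siro.D14 and KY1005.F were lost within their batch (adjusted p = 0.196 and 0.249), where the differences are the same by construction. Without arrays of high actin ratio these calls were lost too (-0.59 and -0.85, adjusted p = 0.139 and 0.141). They were also lost without R.219 or R.220 in the first group (adjusted p up to 0.0903) and without R.211 or R.206 in the second (up to 0.197). By days 97 to 106 (KY1005.Siro.F) the arrays read 9.38, 8.14, 8.16 and 8.82, and the difference of -0.70 ± 0.25 did not pass (adjusted p = 0.0676).

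In KY1005.Siro.D14 the monocyte and myeloid list had 3 of 10 markers higher (S100A8, S100A9 and FCN1), and the CD40LG call there was lost with the myeloid score as a covariate (-0.72, adjusted p = 0.0880). In KY1005.Siro.D28, where 0 of 10 were higher (score -1.20 to 1.16), the CD40LG difference with that covariate was -1.25 (adjusted p = 0.000141). In NoRx.F, with 3 of 10 higher, it was -1.06 (adjusted p = 0.000324). In KY1005.F, with S100A8, S100A9 and the granulocyte gene MMP8 higher (myeloid score 0.30 to 2.79), it was -1.0 (adjusted p = 0.0287). In sorted bulk T cells, fewer cells of a type that expresses a gene and less of its RNA per cell cannot be told apart, which holds for every gene here.

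In KY1005 with sirolimus all 3 probe sets of CD40LG passed at days 14 and 28 in the fit over all batches. MmuSTS.4670.1.S1_s_at fell by 1.30 at day 14 and by 1.32 at day 28 (adjusted p = 0.00284 and 0.00100), and the third probe set by 1.34 and 1.07 (adjusted p = 0.00440 and 0.0126). Within the batch both lost their day 14 calls (adjusted p = 0.107 and 0.181), and the third also its day 28 call (0.0959), while MmuSTS.4670.1.S1_s_at kept day 28 (0.0388). The third was also lost without R.221 at day 14 (0.0568) and without R.220 at day 28 (0.0563). In NoRx.F they differed from the gene's main probe set, with differences of -0.68 (adjusted p = 0.0671) and -0.29 (adjusted p = 0.528). The annotation assigns the main probe set, MmunewRS.854.1.S1_s_at, to the human gene record and the other 2 to the macaque one. Over 101 arrays its values correlated with theirs at r = 0.88 and 0.60. In the main probe set the autologous and tacrolimus groups and the late belatacept group had means from 9.03 to 9.33, around the healthy 9.15: Auto.D14, Auto.D36 and Auto.D100 had means of 9.09, 9.03 and 9.33, Tac.Mtx.D14 and Tac.Mtx.F 9.17 and 9.33, and Bela.Siro.F 9.11. Lower means without a call were seen in Siro.F (8.82, difference -0.28, adjusted p = 0.508), in Bela.Siro.D30 (8.39 and 8.83, mean 8.61, difference -0.56, adjusted p = 0.447) and in Bela.Siro.D14. The last read 8.73, 7.68 and 8.96, with a difference of -0.71 ± 0.25 (adjusted p = 0.0989).

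**Figure D2:**
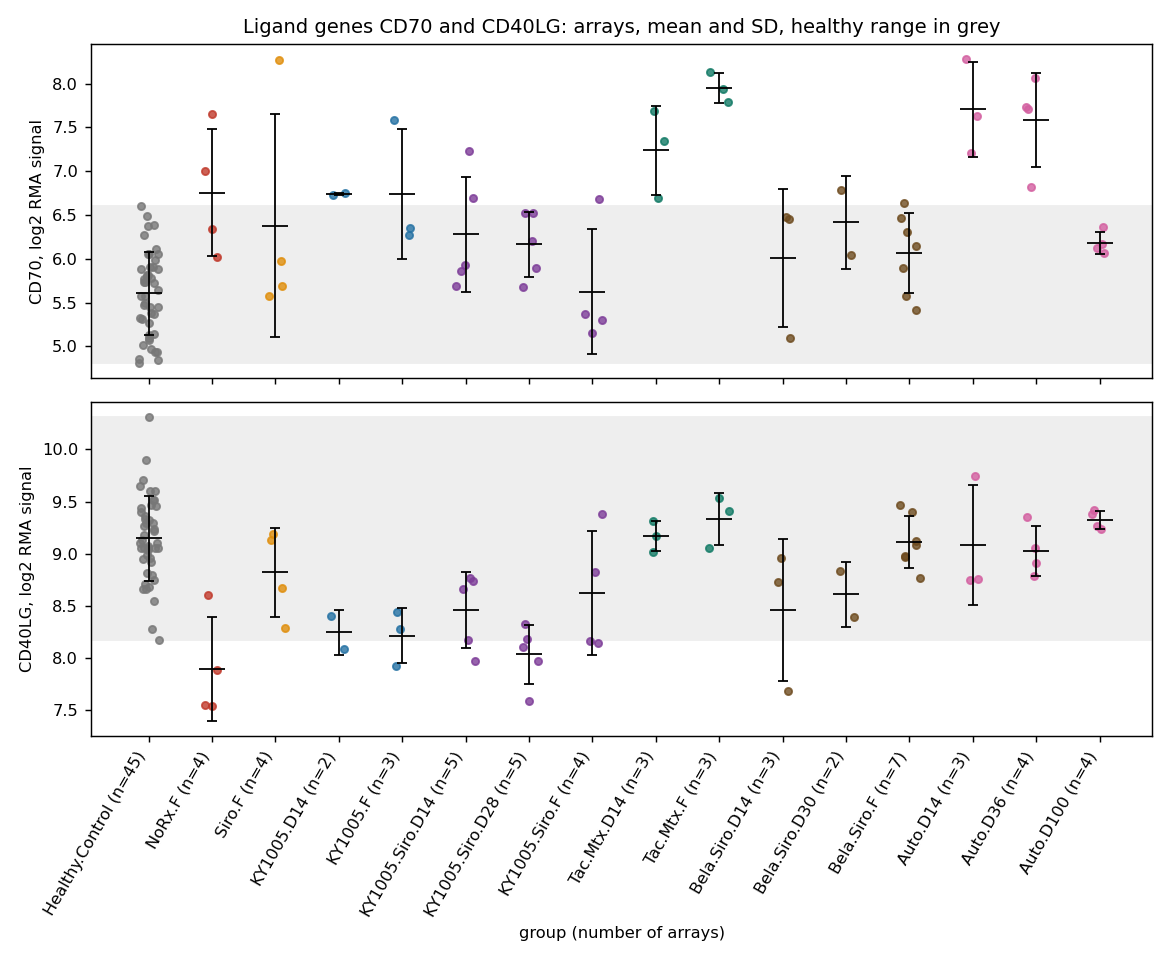
Level of CD70 (top) and CD40LG (bottom, main probe set) on each array, in log2 RMA signal, by group, with mean and SD in black and the range of the 45 healthy arrays in grey. CD70 lies above the grey band in all arrays of Tac.Mtx.D14, Tac.Mtx.F, Auto.D14 and Auto.D36, and CD40LG is lowest in NoRx.F, with a mean of 7.89.

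TNFRSF25, the gene of the TL1A receptor DR3, showed its largest fall in NoRx.F. In healthy arrays it was tightly held, at 11.35 ± 0.32 (SD, n = 45), with a lowest, median and highest value of 10.71, 11.33 and 11.91. The NoRx.F arrays read 10.50, 10.02, 9.95 and 9.89, so all 4 were below every healthy array. The difference was -1.28 ± 0.21, 2.42-fold lower (adjusted p = 5.87e-07), and R.53, which also had a healthy array, went from 11.67 to 10.50. Of the 5 core T cell genes measured, CD5 and TRAT1 were also lower in NoRx.F, where the core T cell score ran from -0.74 to -0.11 against -0.46 to 0.40 in healthy arrays. Of 4 NK cell genes, KLRF1 and NCR3 were lower (score -1.46 to -0.07 against -0.83 to 0.81). Their part in the TNFRSF25 and CD40LG results was not tested.

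KY1005.F read 10.06, 10.48 and 10.86, with a difference of -0.89 ± 0.24 (adjusted p = 0.0255). KY1005.D14 read 10.89 and 10.38, with a difference of -0.72 ± 0.28 that did not pass (adjusted p = 0.271). By contrast the 5 arrays of KY1005.Siro.D14 read 11.43, 10.93, 11.32, 11.30 and 11.58, all inside the healthy range (difference -0.05, 95% interval -0.45 to 0.36), and those of KY1005.Siro.D28 ran from 11.21 to 11.45. The test of KY1005.Siro.D14 against KY1005.F itself gave 0.84 ± 0.26 and did not pass (adjusted p = 0.0910), although the arrays of these groups did not overlap. The KY1005.F call was lost within its batch (adjusted p = 0.263), where the difference is the same by construction. It was also lost without arrays of high actin ratio (-0.69, adjusted p = 0.216) and without R.211 or R.206 (adjusted p up to 0.301).

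Among autologous recipients TNFRSF25 was lowest in Auto.D36, where the arrays read 11.28, 9.57, 10.25 and 10.80 (difference -0.80 ± 0.20, adjusted p = 0.00711). The value of R.200, 9.57, is the lowest of all 101 arrays, and without it the difference was -0.53 (adjusted p = 0.153). The call was also lost in the batches that hold the group (-0.79, adjusted p = 0.0541) and with the actin ratio as a covariate (-0.59, adjusted p = 0.0702). Auto.D100 (10.82, 10.52, 10.95 and 10.99) had a difference of -0.62 ± 0.22 that did not pass (adjusted p = 0.101).

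The other 2 probe sets of TNFRSF25 passed in none of the groups where the main one did. In NoRx.F, MmugDNA.10013.1.S1_s_at differed by -0.40 ± 0.24 and MmugDNA.28838.1.S1_at by 0.14 ± 0.29, and neither passed (adjusted p = 0.229 and 0.770). Over 101 arrays the main probe set correlated with them at r = 0.64 and 0.01, and MmugDNA.10013.1.S1_s_at was on the same side of healthy in KY1005.F (-0.29) and Auto.D36 (-0.45). MmugDNA.28838.1.S1_at passed in Auto.D14 instead (-1.39 ± 0.36, adjusted p = 0.00547), and that call was lost without R.202 and without arrays of high actin ratio (adjusted p up to 0.661). Averaging the 3 probe sets gave -0.51 for NoRx.F (adjusted p = 0.0275), -0.41 for KY1005.F (adjusted p = 0.254) and -0.34 for Auto.D36 (adjusted p = 0.233). In each of these groups, NoRx.F among them, the main probe set alone passed. The averages include it, and the NoRx.F fall was smaller in the average.

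TNFRSF1B, the gene of TNFR2, rose in NoRx.F and in 2 of the 3 autologous groups, Auto.D14 and Auto.D100. Its healthy level was 9.12 ± 0.47 (SD, n = 45), with a lowest, median and highest value of 8.16, 9.16 and 10.10. NoRx.F read 9.71, 10.11, 9.99 and 10.06, within the top of the healthy range save 1 array just above it. The difference was 0.87 ± 0.26 (1.82-fold, adjusted p = 0.00845). Auto.D100 had the highest mean, at 9.89, 10.39, 9.87 and 9.88, with a difference of 1.13 ± 0.27 (2.19-fold, adjusted p = 0.0169), and without R.200 the call was lost (adjusted p = 0.133). Auto.D14 read 9.59, 9.74 and 10.05 (0.97 ± 0.33, adjusted p = 0.0294), a call lost without any 1 of its arrays (adjusted p up to 0.117). It was also lost without R.201 and R.202 together, the arrays of high actin ratio (1.23, adjusted p = 0.511), with that ratio as a covariate (0.94, adjusted p = 0.0997) and with no batch term (0.67, adjusted p = 0.0691). Auto.D36 read 9.75, 9.83, 9.53 and 10.05, and its difference of 0.66 ± 0.26 did not pass (adjusted p = 0.0948).

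The myeloid score was not raised in Auto.D100 (-0.98 to 0.26), and with it as a covariate the TNFRSF1B difference was 1.16 there and 0.80 in NoRx.F (adjusted p = 0.0158 and 0.0233). KY1005.D14 and KY1005.F had TNFRSF1B differences of 0.82 and 0.70 that did not pass (adjusted p = 0.343 and 0.170). The lowest group was Bela.Siro.F, from 8.47 to 9.46 over 7 arrays (difference -0.41 ± 0.21, adjusted p = 0.211). The other 2 probe sets of TNFRSF1B read low throughout. MmugDNA.6539.1.S1_at ran from 4.00 to 5.59, near or below the median of all values of 5.21, and MmugDNA.43150.1.S1_at, from 2.69 to 4.40, failed the filter. The TNFRSF1B values above thus come from 1 probe set, MmuSTS.4663.1.S1_at.

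**Figure D3:**
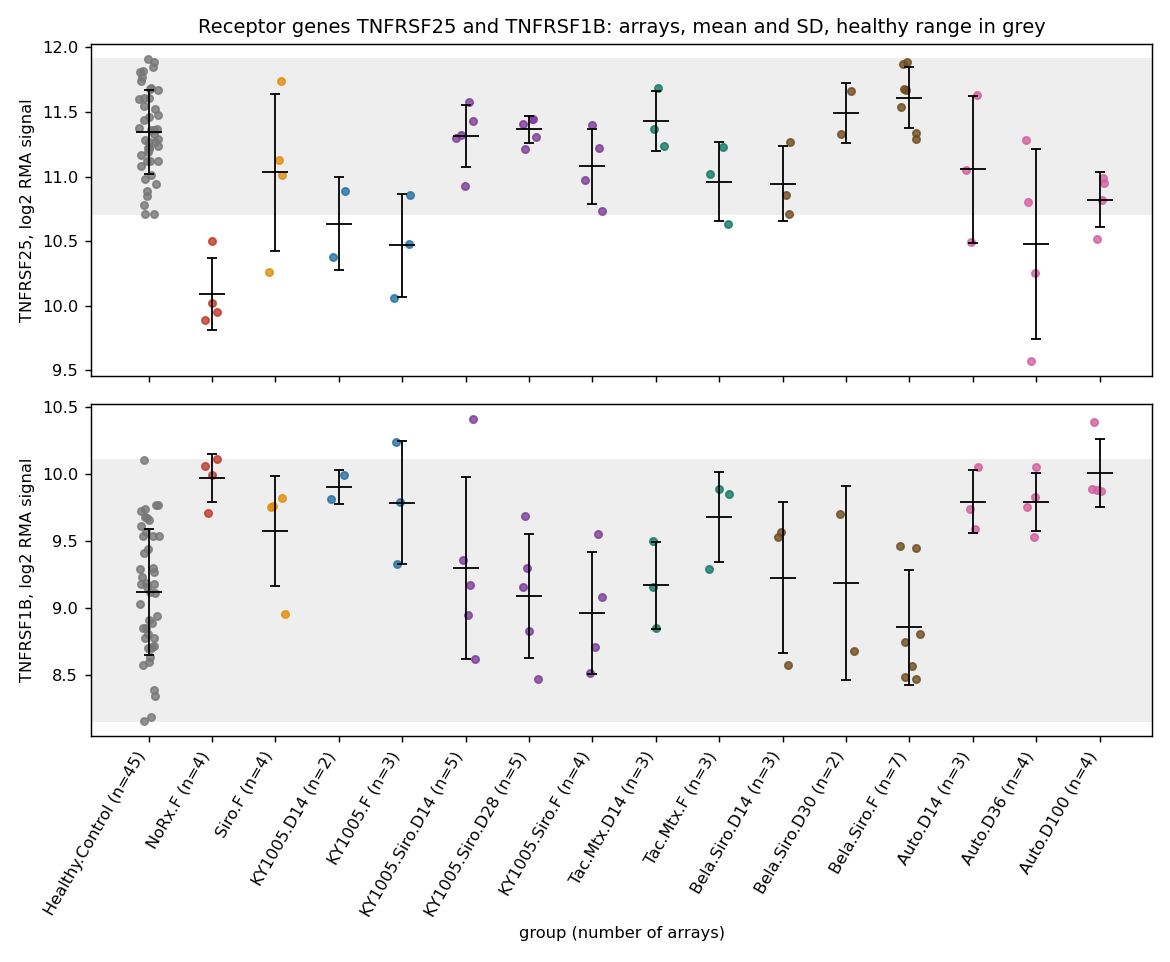
Level of TNFRSF25 (top) and TNFRSF1B (bottom) on each array, in log2 RMA signal, by group, with mean and SD in black and the healthy range in grey. All 4 NoRx.F arrays lie below the grey band for TNFRSF25 and near its top for TNFRSF1B.

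TNFRSF18, the gene of GITR, passed in Auto.D14 alone among the 15 groups in its main probe set. Healthy arrays had 8.27 ± 0.45 (SD, n = 45), from 7.46 to 9.58 with a median of 8.17. Auto.D14 read 9.10, 9.18 and 8.71, inside that range, with a difference of 0.88 ± 0.33 (1.84-fold, adjusted p = 0.0458). That call was lost without R.201 or R.202 (adjusted p up to 0.208), the 2 arrays whose actin ratio was high, when that ratio was a covariate (0.57, adjusted p = 0.345) and in the mean of both probe sets (0.64, adjusted p = 0.118). Auto.D36 read 8.66, 9.64, 8.57 and 9.31 and had a difference of 0.73 ± 0.26 that did not pass (adjusted p = 0.0570). The second probe set, MmugDNA.31870.1.S1_at, which correlated with the main one at r = 0.87, passed in that group (0.96 ± 0.25, adjusted p = 0.00879) and in NoRx.F (0.72 ± 0.25, adjusted p = 0.0262), and did not in Auto.D14 (0.41, adjusted p = 0.371). Its Auto.D36 call was lost without R.200 or R.202 (adjusted p up to 0.0835), and its NoRx.F call without R.53 (0.57, adjusted p = 0.177) and with array weights (adjusted p = 0.0975). In NoRx.F the main probe set read 9.32, 8.57, 8.53 and 8.78 (0.59 ± 0.26, adjusted p = 0.0850). KY1005.Siro.F was the lowest group, at 8.21, 8.02, 7.61 and 7.73, with a difference of -0.49 ± 0.28 (adjusted p = 0.272).

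TNFRSF14, the gene of HVEM, had the smallest range of group means of the 6. Its healthy level was 9.08 ± 0.21 (SD, n = 45), from 8.65 to 9.62 with a median of 9.04. Group means ran from 8.84 in KY1005.Siro.D28 to 9.30 in Auto.D14, a span of 0.46, and it passed in 0 of 26 comparisons, with 1 unadjusted p under 0.05. That was KY1005.Siro.D28, at 9.0, 8.81, 8.89, 8.75 and 8.78 (difference -0.28 ± 0.13, adjusted p = 0.137). In NoRx.F it read 9.26, 9.04, 9.02 and 9.28, and the 95% interval of the difference was -0.16 to 0.35.

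**Figure D4:**
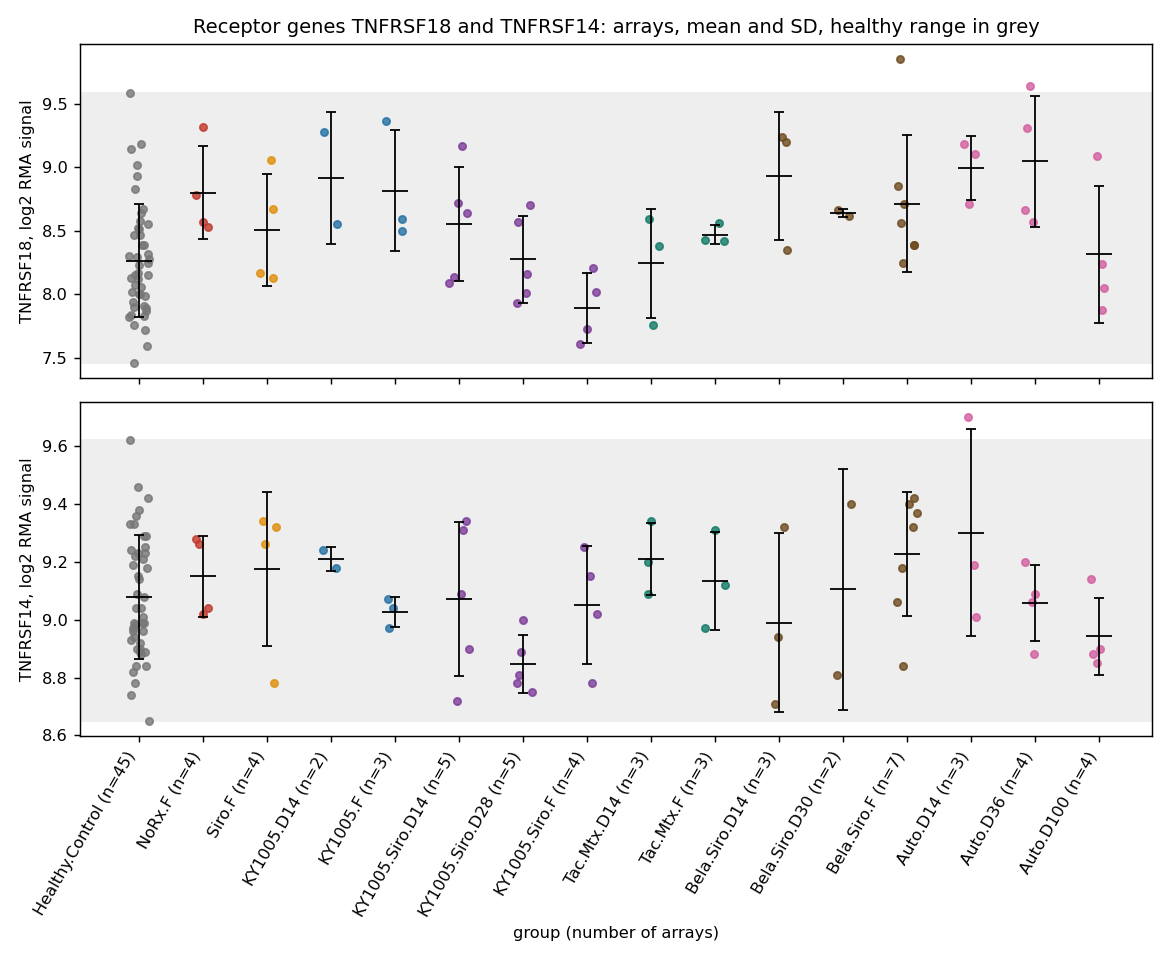
Level of TNFRSF18 (top) and TNFRSF14 (bottom) on each array, in log2 RMA signal, by group, with mean and SD in black and the healthy range in grey. The TNFRSF14 axis spans about 1 log2 unit, and its group means lie between 8.84 and 9.30.

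The groups were also set in order of their means for each gene. CD70 ran from 7.95 in Tac.Mtx.F through Auto.D14 (7.71), Auto.D36 (7.58) and Tac.Mtx.D14 (7.24) to NoRx.F (6.75), and ended with KY1005.Siro.F (5.62) and Healthy.Control (5.61). CD40LG ran from Tac.Mtx.F and Auto.D100 (both 9.33) down to KY1005.F (8.21), KY1005.Siro.D28 (8.03) and NoRx.F (7.89). TNFRSF25 was highest in Bela.Siro.F (11.61) and lowest in Auto.D36 (10.48), KY1005.F (10.47) and NoRx.F (10.09). Of 90 pairs of neighbours in these orders over the 6 genes, 1 was further apart than the larger of the 2 groups' SDs: Auto.D100 and Tac.Mtx.D14 for CD40LG, whose means are 9.33 ± 0.09 (SD, n = 4) and 9.17 ± 0.14 (SD, n = 3). Neighbours in a sorted list are close by construction, so these gaps describe the order only.

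The next comparisons set the regimens against each other. Sampling days differ as well: NoRx.F was taken on days 6 to 12, Siro.F on days 12 to 24 and KY1005.F on days 16 to 23. Regimen and day after transplant thus cannot be fully told apart in the contrasts with NoRx.F. Siro.F against NoRx.F asks how sirolimus recipients differed from recipients without prophylaxis, and 2 of the 6 genes passed, where 6.45% of all probe sets did. CD40LG was higher in Siro.F (8.29, 9.19, 9.13 and 8.67) by 0.90 ± 0.28 (adjusted p = 0.0349). TNFRSF25 was higher (11.01, 11.13, 11.74 and 10.26) by 0.93 ± 0.25 (adjusted p = 0.0126). In both genes 3 of 4 Siro.F arrays stood above all 4 NoRx.F arrays. The CD40LG call was lost when any of 6 of the 8 arrays was left out, namely R.50, R.51, R.52, R.18, R.17 or R.16 (adjusted p up to 0.164), and the TNFRSF25 call without R.17 (0.64, adjusted p = 0.181). In CD40LG's other probe sets the differences were 0.37 and -0.03, and in those of TNFRSF25 0.32 and -0.11, none past the threshold.

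KY1005 with sirolimus at day 14 against NoRx.F had 1 of 6 genes past the threshold (background 15.6%). TNFRSF25 was higher by 1.23 ± 0.29 (2.35-fold, adjusted p = 0.00156), and all 5 arrays stood above all NoRx.F arrays, which lie in other batches. It kept its call when any 1 array was left out (adjusted p up to 0.00549) and lost it in the mean of its probe sets (0.45, adjusted p = 0.255). CD40LG did not pass there, with a difference of 0.32 (95% interval -0.32 to 0.97). KY1005.F against NoRx.F had 0 of 6 genes past the limma threshold and 0 at an unadjusted p under 0.05 (background 8.74%). Its intervals were wide, from -1.43 to 0.50 for CD70 and from -0.64 to 0.78 for CD40LG. NoRx.F against Auto.D36, allogeneic without prophylaxis against autologous, had 1 of 6 past the threshold (background 4.12%). Here graft type and day after transplant (6 to 12 against 30 to 36) cannot be told apart. CD40LG was lower in NoRx.F (-1.10 ± 0.32, adjusted p = 0.0310), with no overlap, and the call was lost without R.50, R.51 or R.52 of NoRx.F or R.62 or R.200 of Auto.D36 (adjusted p up to 0.128).

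Bela.Siro.D14 against Tac.Mtx.D14 compares prophylaxis regimens on the same day and in the same batch. The limma test called 0 of 6 genes (background 0%), with 2 at an unadjusted p under 0.05: CD70 was lower with belatacept in all arrays (6.45, 5.10 and 6.48 against 7.34, 7.69 and 6.69), with a difference of -1.23 ± 0.44 (adjusted p = 0.173), and CD40LG differed by -0.71 ± 0.32 (adjusted p = 0.275). KY1005.Siro.D14 against KY1005.F called 0 (background 0.363%), with 1 at an unadjusted p under 0.05, TNFRSF25, described above.

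Time courses within a regimen gave 0 of 6 genes past the limma threshold in each of the 5 tested. They were KY1005.Siro.D28 against KY1005.Siro.D14 (background 0.00946%, 0 genes at an unadjusted p under 0.05), KY1005.Siro.F against KY1005.Siro.D28 (1.84%, 1 gene), Tac.Mtx.F against Tac.Mtx.D14 (0.00631%, 0 genes), Bela.Siro.F against Bela.Siro.D14 (0.00315%, 2 genes) and Auto.D100 against Auto.D36 (0%, 1 gene). The gene at an unadjusted p under 0.05 in the last was CD70, with -1.12 ± 0.45 (adjusted p = 0.992). In R.200, R.201 and R.202, the 3 animals measured at both times, CD70 was lower at the later time in all 3 (changes from -1.71 to -0.70, mean -1.35 ± 0.56 SD), and a fit with the animal as a block, on those animals alone, gave -1.35 ± 0.21 (adjusted p = 0.0472). For these 3 animals the times also lie in different batches, so time and batch cannot be told apart. The same kind of fit called 0 of the 6 genes in every other time course tested. In the tacrolimus and methotrexate animals CD70 was higher on the later array in 3 of 3, by 0.24 to 1.11.

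Some animals also gave a healthy array, which shows each change from its own baseline. CD70 in the autologous animals R.200, R.201 and R.202 stood at 5.64, 6.06 and 5.88 when healthy and was higher by 1.57, 1.58 and 2.39 at day 14, by 1.18, 2.02 and 1.82 at day 36 and by 0.48, 0.31 and 0.19 at day 100. The height above baseline was thus at least 1.18 in each at the earlier times and at most 0.48 at the last. R.62 went from 6.49 to 7.73 at day 30 and R.60 from 6.39 to 6.17 at day 100. R.53 of NoRx.F went from 4.84 to 7.65. In Siro.F, R.18 went from 5.10 to 8.27, while R.13 changed by -0.04 and R.16 by 0.20. TNFRSF1B was higher than baseline in 10 of 11 arrays of the 3 autologous groups, by up to 0.76, the exception being R.202 at day 14 (-0.03). R.200, R.201 and R.202 enter at each time against the same healthy array, so these arrays are not independent. Changes were 0.36, 0.47 and -0.03 at day 14, and 0.71, 0.76, 0.10 and 0.36 at day 100. All were below the fitted differences of 0.97 and 1.13. In R.200, R.201 and R.202 the healthy arrays also lie in another batch than those of days 14 and 100.

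Other genes of the pathway were read from a list of 27 (binding partners, other family members, adaptors), of which 19 were measured. TNFSF15 and TNF were below the filter, and CD27, LTA, TNFRSF1A, TNFRSF9, TNFRSF8 and TRAF2 had no single-gene probe set, so the receptor of CD70 and the ligand of TNFRSF25 were not read. In NoRx.F 3 of the 19 rose and 3 fell, near the 27.5% of all probe sets that passed there, with a median difference of -0.02. CD40, the partner of CD40LG, rose by 0.40 ± 0.13 (adjusted p = 0.0154), OX40 (TNFRSF4) by 0.75 and TNFSF9, the 4-1BB ligand, by 0.40. TNFSF18, the ligand of GITR, fell by 0.36 (-0.36 ± 0.08, adjusted p = 0.000147). LTB, a lymphotoxin subunit, fell by 0.78 and BIRC3, an inhibitor of apoptosis and NF-kB target, by 1.44 (adjusted p = 5.80e-05 and 6.51e-05).

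Against NoRx.F, 2 of the 19 genes were higher in Siro.F, where 6.45% of all probe sets passed. In KY1005.Siro.D14 2 were higher and 2 lower (background 15.6%), and in KY1005.F 1 was lower (8.74%). Both LTB and BIRC3 were higher in Siro.F than in NoRx.F, by 1.00 ± 0.19 and 1.16 ± 0.36 (adjusted p = 0.000278 and 0.0337), as they were in KY1005.Siro.D14, by 1.00 and 1.64. TRAF5 was lower than in NoRx.F in KY1005.Siro.D14. CD40 was lower than in NoRx.F by 0.63 there (-0.63 ± 0.19, adjusted p = 0.0125) and in KY1005.F (-0.65 ± 0.20, adjusted p = 0.0313). CD40 marks B cells and antigen-presenting cells. Of 7 B cell markers 1, CD79B, was higher in NoRx.F, and its part and that of the myeloid markers in the CD40 result was not tested. TNFRSF4 rose in 8 of 15 groups against healthy controls and its ligand gene TNFSF4 in 5, among them the belatacept groups (TNFRSF4 by 1.04, 1.35 and 1.26), which had no call among the 6 genes described here. The HVEM partners passed rarely: BTLA fell by 0.87 in KY1005.Siro.D28, CD160 rose by 1.65 in Tac.Mtx.F and TNFSF14, which encodes LIGHT, fell by 0.58 in Bela.Siro.F. LTBR, TRAF1, TRAF3, TRADD and MAP3K14 passed in 0 of the 15 comparisons, where from 0.202% to 27.5% of all probe sets passed.

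Over all 101 arrays the 6 genes did not move as 1 block. Pearson's r was 0.51 between CD70 and TNFRSF1B, 0.49 between CD70 and TNFRSF18, 0.43 between CD40LG and TNFRSF25, and -0.54 between TNFRSF25 and TNFRSF1B. Within the 45 healthy arrays the same pairs had r = 0.40, 0.25, 0.36 and -0.26. These are descriptions: arrays share animals and groups, and most of the differences between groups above enter the first set of values.

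The genes most like each member, by Pearson's r over 101 arrays among 9933 genes, differed between members. For CD70 they were E2F8, TP63 and CDK1 (r = 0.76 each), of which E2F8 and CDK1 act in the cell cycle, and CD70 had r = 0.71 with MKI67, a marker of dividing cells. TNFRSF1B had r = 0.51 with MKI67, TNFRSF18 0.45, TNFRSF14 0.17 and CD40LG -0.14. MKI67 itself was higher than in healthy controls in NoRx.F (3.30 ± 0.37), Tac.Mtx.F (1.44), Auto.D14 (2.23) and Auto.D36 (1.83), where CD70 was too, and in Siro.F (1.58) and KY1005.F (1.44), where CD70 did not pass. In Tac.Mtx.D14, where CD70 passed, MKI67 did not (1.05 ± 0.40, adjusted p = 0.204). For TNFRSF1B they were ITGB2, an integrin of leukocytes, NKG7, a cytotoxic granule gene, and CLIC1 (r = 0.89, 0.83 and 0.82), and within healthy arrays these were 0.87, 0.86 and 0.79. TNFRSF25 was most like IL11RA, INPP5A and REPIN1 (r = 0.82, 0.79 and 0.78) and ran against CD8A (-0.56) and MKI67 (-0.53). TNFRSF1B had r = 0.50 with CD8A. CD8A was higher in NoRx.F by 0.73 ± 0.16 (adjusted p = 0.000153), and its part in the TNFRSF25 and TNFRSF1B results was not tested.

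For CD40LG the nearest genes were PCMTD1, ESCO1 and ZSCAN21 (r = 0.72, 0.70 and 0.70), and it had r = -0.49 with IL2RA, the gene of the interleukin 2 receptor alpha chain. IL2RA was higher in NoRx.F (1.28), KY1005.Siro.D14 (0.68) and KY1005.Siro.D28 (0.75), groups where CD40LG was lower, and in Siro.F (0.97), where CD40LG did not pass. In KY1005.F, where CD40LG was lower, IL2RA did not pass (0.79, adjusted p = 0.0557). TNFRSF18 was nearest to CDKN2C, TTLL10 and CDKN2A (r = 0.63, 0.62 and 0.58) and had r = 0.13 with FOXP3, the factor of regulatory T cells. The FOXP3 probe set read low, at 5.06 ± 0.22 (SD, n = 45) in healthy arrays, below the median of all values of 5.21. That r thus says little about regulatory T cells. TNFRSF14 was nearest to KHK, NT5C and SBF1 (r = 0.64, 0.63 and 0.63). CD4, at 6.76 ± 0.31 (SD, n = 45) in healthy arrays, had r near 0 with each of the 6, between -0.13 and 0.03.

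**Figure D5:**
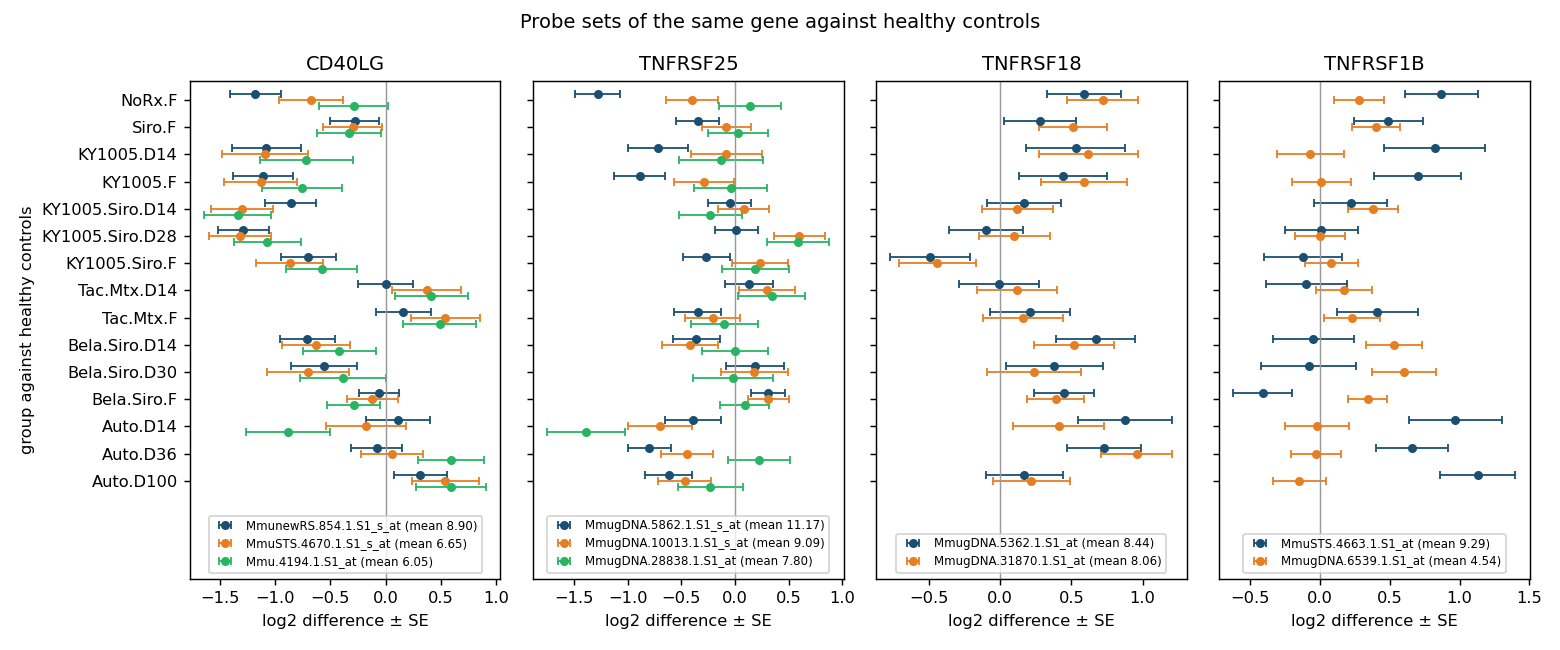
Difference from healthy controls (log2, ± SE) in the 15 groups for each probe set of the 4 genes with more than 1 probe set past the filter, with the mean level of the probe set in the key. The 3 probe sets of CD40LG fall together in KY1005.Siro.D14 and KY1005.Siro.D28, while in NoRx.F those of TNFRSF25 read -1.28, -0.40 and 0.14.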

How the data were processed

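RNA of CD3-positive blood T cells was labelled from the 3' end and hybridised to Affymetrix rhesus arrays, per the labels' protocols. The authors deposited log2 values summarised by RMA with affy, per the submitters' processing notes, with versions not given in the sources used here. The table holds 52865 probe sets: 24969 are paired with 1 gene, 361 with several and 27535 with none. Gene identifiers of 24629 matched the macaque RefSeq table, which changed 0 symbols.

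The 2 healthy arrays of R.201 were averaged. Probe sets reaching the median of all values (5.21) on at least 3 arrays were kept, without 99 control probe sets, leaving 31711. limma 3.58.1 (R 4.3.3) fitted 16 groups and 6 labelled batches together (lmFit, eBayes), with Benjamini-Hochberg adjustment and a threshold of 0.05. Where several single-gene probe sets existed, the one of highest mean stood for its gene. The genes named are the 6 members with all their probe sets, pathway genes past the threshold (up to 4 per role and comparison, by size) and the 3 genes most correlated with each member. CD79B, the T cell, myeloid, B cell and proliferation genes are context. The members and lists were chosen with earlier results of these data known. The method was tested on simulated data. Arrays of 1 animal in different groups had a median residual correlation of 0.184 over 51 pairs, 30 of them above 0.1, so animals were added as a block in alternatives. Array number, not read depth, limits precision.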

Additional observations from a re-analysis of the deposited data

Results flagged for a closer look

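In 6 of 48 combinations of a gene and a group of 4 to 10 arrays, 1 array stood apart from the others by more than Dixon's 95% limit, a gap that chance alone gives in about 1 of 20 groups. CD70 in R.18 of Siro.F was 8.27, against 5.57 to 5.97 on the other arrays. CD70 in R.217 of KY1005.Siro.F was 6.68, against 5.15 to 5.37. TNFRSF14 in R.16 of Siro.F was 8.78, against 9.26 to 9.34. TNFRSF18 in R.66 of Bela.Siro.F was 9.85, against 8.25 to 8.85. TNFRSF1B in R.13 of Siro.F was 8.96, against 9.75 to 9.82. TNFRSF1B in R.200 of Auto.D100 was 10.39, against 9.87 to 9.89. Siro.F holds 3 of the 6, each in a different animal. Of 30 differences between time points within a regimen, none passed the limma threshold. Time courses were not compared between regimens.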

How the results depend on the processing

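The counts of genes past the threshold in NoRx.F (4, and 5 at most), KY1005.Siro.D28, Tac.Mtx.F and the belatacept groups stayed within 1.5 times of those reported. Other counts moved as follows, and the cause was not tested. With array weights the counts were 1 in Siro.F, 2 in KY1005.D14, 4 in KY1005.F, 3 in Auto.D100, 1 for Siro.F and 2 for KY1005.Siro.D14 against NoRx.F, 0 for NoRx.F against Auto.D36, 1 for KY1005.Siro.D14 against KY1005.F and 1 for KY1005.Siro.F against KY1005.Siro.D28. With the mean of all probe sets they were 2 in Siro.F, 1 in KY1005.F, and 0 in Auto.D100, Siro.F against NoRx.F, KY1005.Siro.D14 against NoRx.F and NoRx.F against Auto.D36. Without arrays of high actin ratio they were 0 in KY1005.F, KY1005.Siro.D14 and Auto.D14 and 1 for KY1005.Siro.D14 against KY1005.F. With that ratio as a covariate they were 1 each in Siro.F, KY1005.F and Auto.D14. With the myeloid score they were 0 in KY1005.Siro.D14 and 1 for Siro.F against NoRx.F. Within the batches of the group, which leaves fewer healthy arrays, they were 0 in KY1005.F and KY1005.Siro.D14 and 1 in Auto.D36, and over all probe sets KY1005.F went from 1040 to 6. Without batch Auto.D36 had 4. With only the groups compared, Auto.D100 had 2, KY1005.Siro.D14 against NoRx.F 2, and Siro.F against NoRx.F and NoRx.F against Auto.D36 0. A stricter filter gave 1 in Siro.F, and a further quantile normalization 1 in KY1005.Siro.F. With the animal as a random block (consensus correlation 0.11) Siro.F had 1, and with it as a fixed block Auto.D100 against Auto.D36 had 1. The block changed no other count by more than 1.5 times. Leaving out 1 array at a time gave 0 to 1 genes in Siro.F, KY1005.Siro.D14, KY1005.Siro.F, Tac.Mtx.D14, Auto.D100 and NoRx.F against Auto.D36, 0 to 2 in KY1005.F and Siro.F against NoRx.F, and 1 to 2 in Auto.D14 and Auto.D36. Groups of 2 to 5 arrays limit what could be called.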
